A study of Saccharomyces cerevisiae with 24 samples.

Results

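The measurements described here are those of yeast deletion pools that carried the MDM33 plasmid, compared between galactose, on which the plasmid expresses MDM33, and glucose, on which it does not. They were chosen by plasmid from the sample labels, which gave 12 of the 24 samples, 6 on galactose and 6 on glucose. The pool on galactose carried pYX223-MDM33, a multicopy plasmid with MDM33 behind the GAL1/10 promoter, and was harvested after 4 days on plates with 2% galactose. The pool on glucose carried the same plasmid and was harvested after 2 days on plates with 2% glucose, so sugar and time on the plate cannot be told apart. Pools with pYX223 alone, plated in the same 2 ways, are given beside them as the empty vector. All groups shared the BY4742 background (MATα, haploid), the same collection of single gene deletions (YSC1054), a first round of 4 days on glucose plates after transformation, and a medium whose only supplements were leucine, lysine and uracil. Each group was measured in 2 experiments, with the uptag and the downtag barcode of each strain labelled separately. In experiment 1 all galactose samples carried Cy3 and all glucose samples Cy5, so dye and sugar cannot be told apart there, and in experiment 2 each DNA was labelled with both dyes.

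Mdm33 is a protein of the mitochondrial inner membrane with coiled coils that face the matrix, and an excess of it arrests growth. In such a pool a deletion strain that still divides on galactose gains weight among the barcodes, whereas a strain that stops is diluted out. Expression from the plasmid needs galactose uptake, the sensor Gal3 and Gal4, the activator of the GAL1/10 promoter, whereas Gal80 represses Gal4. Prohibitins, the scaffold proteins Phb1 and Phb2, form rings in the same membrane and are among the genes of interest to the study.

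A strain value is a scaled fluorescence intensity, averaged over dyes and then over the 2 tags. The authors scaled each channel to a common total, so a value is a share of the pool rather than a number of cells, and the brightness of one barcode cannot be set against that of another. A strain counted as detected where at least 1 tag was above the detection limit of its channel, set at the 99th percentile over original probes whose tag was not labelled in it. Across channels the limits were 786 to 3339 units on galactose and 176 to 837 units on glucose. The 2 experiments ranked the 4074 tested strains alike on glucose (Spearman's rho 0.77, a description across strains) and less alike on galactose (0.43). The median absolute log2 difference between experiments was 1.80 on galactose and 0.64 on glucose with the MDM33 plasmid, against 0.76 on galactose and 0.65 on glucose with the empty vector. On galactose the 2 dyes of experiment 2 ranked the barcodes with rho 0.59 for uptags and 0.66 for downtags, against 0.95 and 0.97 on glucose.

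The signal was concentrated in few strains on galactose. Brightest here means the highest signal, which depends on the barcode as well as on the amount of a strain. The 10 brightest strains held 11.0% and 5.07% of the signal of all strains in the 2 galactose experiments, against 1.42% and 0.812% on glucose. The 50% mark was reached by 123 and 216 strains on galactose and by 785 and 1070 strains on glucose. With the empty vector, galactose left the pool about as even as glucose did, with 725 and 1035 strains on galactose and 798 and 1042 on glucose. The bright strains were largely others in each experiment. Of the 100 brightest strains on galactose, 15 were shared by the 2 experiments, against 29 on glucose, and of the 10 brightest 2 were shared on galactose, against 0 on glucose.

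**Figure D1:**
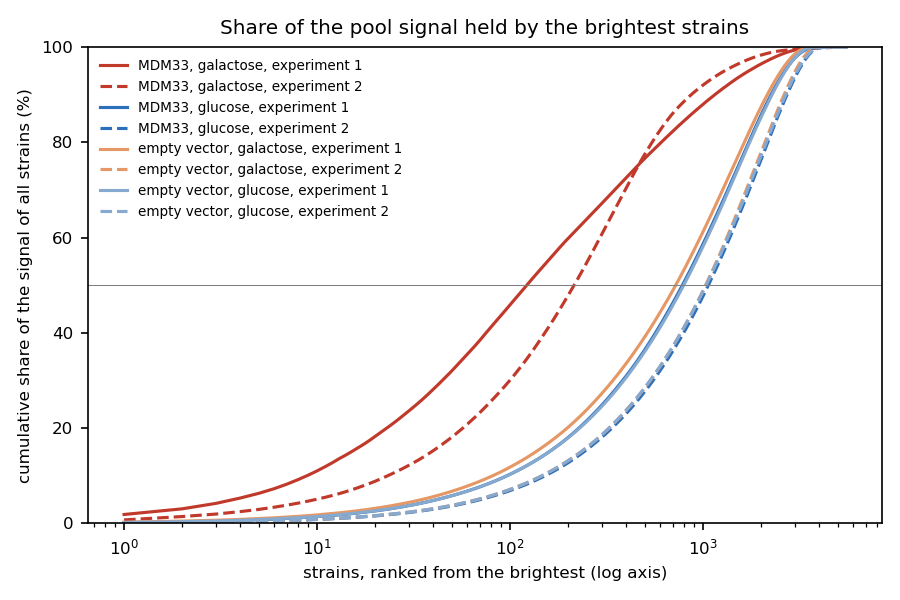
Cumulative share of the signal of all strains (y axis, percent) against strains ranked from the brightest (x axis, log scale), with 1 line per group and experiment. The MDM33 plasmid on galactose reaches 50% at 123 and 216 strains, and the other 6 lines between 725 and 1070 strains.

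Among the 4074 strains tested, the median log2 difference between galactose and glucose was -1.59 in experiment 1 and -2.56 in experiment 2, with 500 units added before the logarithm. The empty vector gave -0.09 and -0.01. Since the values are shares of one total, this median moved with the scaling. It was -1.98 in the fit, and -0.40 or 0.08 when the 75th percentile over all probes, or over the labelled barcodes, set the scale of each channel. Differences below are therefore read against the median of all strains, and higher or lower is meant on the authors' scale. No strain passed limma's test at an adjusted p of 0.05 (0 of 4074, 0%), where 1540 strains had an unadjusted p under 0.05, 71 of them higher and 1469 lower on galactose. The lowest adjusted p was 0.060. This fit shared 1 spread over all 4 groups, though the median difference between experiments was 1.80 on galactose with the MDM33 plasmid and 0.64 to 0.76 elsewhere. The SEs and p-values given below may therefore understate the spread of that group. The lowest adjusted p of limma was 0.188 with the 4 MDM33 values alone and 0.244 with array weights. With the empty vector 0 strains passed (0%) and 76 had an unadjusted p under 0.05, and the interaction of plasmid and sugar passed in 0 strains (0%), with 757 under 0.05. Without experiment 1 of the galactose pool the test called 1821 strains (220 higher and 1601 lower), and without experiment 2 it called 741 (110 higher and 631 lower), with the remaining galactose value assumed to vary like the other groups. Downtags alone gave 516 calls (13 higher and 503 lower) and uptags alone 0. For a single strain, 2 values against 2, exact permutation reaches no p below 0.333.

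A rule of size with no test asked for at least an 8-fold difference in the same direction in both experiments. It, and every count of strains higher or lower in both experiments, set the galactose sample against the glucose sample of the same experiment number, although these numbers were not shown to pair the samples. It took 15 strains that were higher on galactose (0.271% of 5526) and 262 that were lower (4.74%, or 6.94% of the strains detected on glucose). All 15 were detected on galactose in both experiments (0.662% of such strains). The same rule with the empty vector took 5 strains that were higher (0.0905%) and 27 that were lower (0.489%). The split depended on the scaling, with 112 higher and 205 lower strains on the scale of the 75th percentile over all probes, and 103 higher and 15 lower strains on that over the labelled barcodes. The differences of the 2 experiments ranked the strains with a rho of 0.13. Of the 3773 strains detected on glucose in both experiments, 181 were higher on galactose in both, 2574 were lower in both and 1018 went opposite ways.

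**Figure D2:**
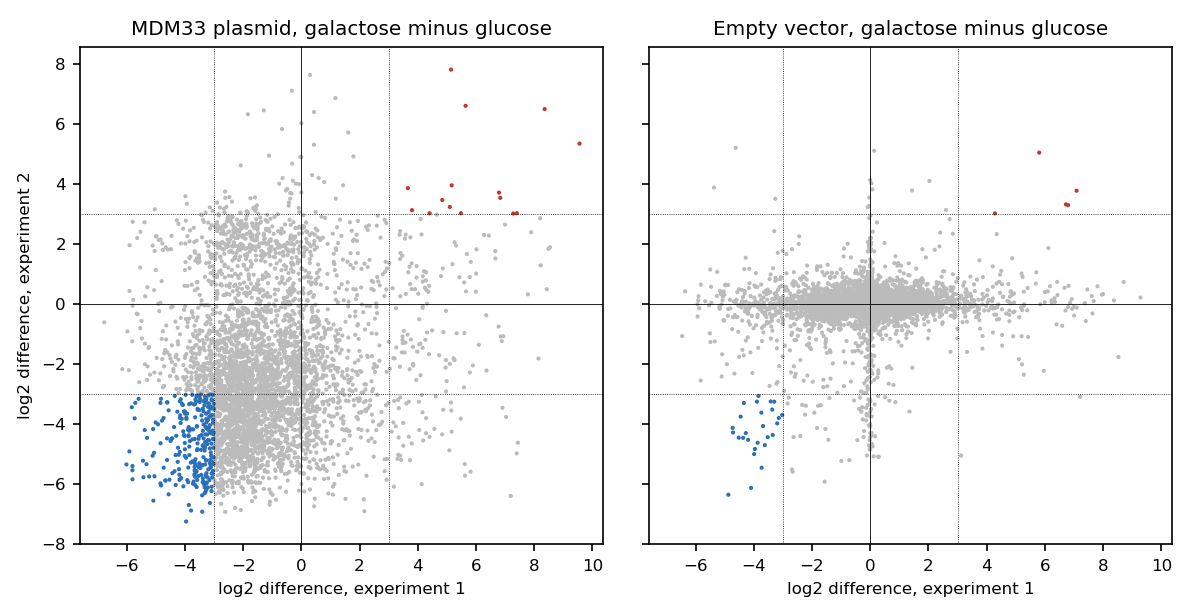
Log2 difference, galactose minus glucose, of each tested strain in experiment 1 (x axis) and experiment 2 (y axis), for the MDM33 plasmid on the left and the empty vector on the right. Red points are at least 8-fold higher and blue points at least 8-fold lower in both experiments. With the MDM33 plasmid the cloud lies below 0 on both axes, with medians of -1.59 and -2.56, and with the empty vector the medians are -0.09 and -0.01.

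On galactose 2267 strains were detected in both experiments, against 3773 on glucose, and with the empty vector the numbers were 3656 on galactose and 3690 on glucose. Of the 3773 strains detected on glucose in both experiments, 2252 were also detected on galactose in both (59.7%, below called retained), 1085 in only 1 experiment (28.8%) and 436 in neither (11.6%, or 7.89% of all 5526 strains, below called lost). No strain was detected on galactose in both experiments and on glucose in neither. Strains missing on galactose numbered 695 in experiment 1 and 1262 in experiment 2, and the 436 missing in both were 62.7% and 34.5% of these. Whether a strain was lost went with its level on glucose, which the rule partly fixes. Most detection limits were higher on galactose, so a strain dim on glucose could count as lost with its level unchanged. The same limits worked against counting a strain as detected on galactose only. The 3773 strains were ranked by mean glucose level and divided into 4 bins of 943 or 944. In the lowest bin 37.1% were lost and 21.4% retained, in the second bin 7.74% and 56.2%, in the third 1.38% and 73.8%, and in the highest bin 0% and 87.4%. The larger lists below are therefore given with the number of their strains, or of their lost strains, in the lowest bin. Lost strains had medians of 514 and 272 units on galactose and 3931 and 9434 on glucose, and retained strains of 12850 and 11150 units on galactose and 39735 and 40789 on glucose. A strain at the detection limit on galactose may still be present below it, so lost means not detectable at these limits.

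Of the 15 strains past the 8-fold rule upward, 11 lack a gene with a name and 4 carry a systematic name only. The strain lacking BUD14, a regulator of the phosphatase Glc7 and of formins, had 973382 and 254061 units on galactose, against 2465 and 2292 on glucose, by its uptag alone. Its log2 difference was 7.44 ± 1.40 (SE, 2 experiments per group, limma's adjusted p = 0.060). It was dim with the empty vector, at 0 and 9338 units on galactose and 0 and 56.6 on glucose. Both galactose values lay far above all 6 others of this strain. SCP160 encodes a polysome-bound protein with many KH domains, which bind RNA, and its deletion strain had 1630700 and 523102 units on galactose, against 9128 and 63515 on glucose, a log2 difference of 5.22 ± 1.16 (adjusted p = 0.060). The empty vector pool held it at 23705 and 65401 units on galactose, against 152015 and 90296 on glucose, and the interaction was 6.78 ± 1.64 (adjusted p = 0.236). Without TRM13, which encodes a tRNA 2'-O-methyltransferase, the values were 945575 and 224936 units on galactose and 32489 and 19779 on glucose, with a difference of 4.16 ± 1.07 (adjusted p = 0.064). Each of its 2 tags was higher on galactose in each experiment.

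Spt4 acts with Spt5 on elongating RNA polymerase II. The SPT4 deletion strain had 595679 and 393362 units on galactose, against 16375 and 1232 on glucose (6.49 ± 1.33, adjusted p = 0.060). Its neighbour by systematic number, YGR064W, had 414100 and 178941 units on galactose and 49.98 and 3880 on glucose (7.46 ± 1.17, adjusted p = 0.060). These 2 were the only strains of the 15 whose neighbour by number was among them. An overlap of the 2 reading frames was not looked up, so the 2 strains may not stand for separate genes. Both were also higher on galactose with the empty vector, SPT4 at 56419 and 31882 units on galactose and 11.1 and 2781 on glucose, and YGR064W at 44778 and 14283 on galactose and 1826 and 1314 on glucose. Of the 15 strains, 2 passed the 8-fold rule upward with the empty vector too. The interaction was 1.43 ± 1.87 for SPT4 (adjusted p = 0.704) and 3.80 ± 1.66 for YGR064W (adjusted p = 0.272).

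The PHB2 deletion strain, which lacks one of the 2 prohibitins, had 37778 and 40888 units on galactose, against 566 and 2151 on glucose. Its log2 difference was 4.57 ± 0.81 (adjusted p = 0.060), and with the empty vector it had 1432 and 2454 units on galactose and 5545 and 3865 on glucose. The 2 galactose values with the MDM33 plasmid were close to each other and above all others. The signal came from the downtag, with 75557 and 80716 units on galactose and 965 and 4131 on glucose, whereas the uptag had 0 and 1059 on galactose and 167 and 171 on glucose. The strain lacking its partner PHB1 had 41077 and 12875 units on galactose and 21361 and 56788 on glucose, so the galactose value was higher in experiment 1 and lower in experiment 2 (log2 differences 0.93 and -2.10). Its fitted difference of -0.59 ± 0.92 (adjusted p = 0.665) lay above the median of all strains, and its sign turned with the scale (2.01 and 1.63 on the 2 scales of the 75th percentile) and with the tag (-2.05 by uptags and 0.66 by downtags). Whether the 2 prohibitin strains differ from each other was not tested.

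Loss of LOA1, a lysophosphatidic acid acyltransferase of lipid droplets, gave 126169 and 54951 units on galactose, against 2034 and 63.4 on glucose (6.13 ± 0.95, adjusted p = 0.060). This strain was near 0 with the empty vector, at 15.9 and 77.8 units on galactose and 110.1 and 79.2 on glucose. Most of its signal came from the downtag. For YHI9, a gene of unknown function, 172483 and 46331 units on galactose stood against 1062 and 3050 on glucose (5.26 ± 1.10, adjusted p = 0.060), again from the downtag, since the uptag alone gave a difference of -0.15. A strain lacking DPB4, a histone-fold subunit of DNA polymerase epsilon and of a chromatin remodeller, had 21419 and 219924 units on galactose and 1234 and 14578 on glucose (3.77 ± 1.37, adjusted p = 0.092). The lower galactose value and the higher glucose value of this strain came from different experiments and lay close to each other.

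CRC1 encodes the carnitine carrier of the mitochondrial inner membrane, and its deletion strain had 407873 and 509756 units on galactose, against 18753 and 61867 on glucose (3.72 ± 0.84, adjusted p = 0.060). The RPL7B strain, which lacks one of the paired genes for a protein of the large ribosomal subunit, had 236029 and 219218 units on galactose and 4793 and 26385 on glucose (4.26 ± 1.00, adjusted p = 0.060). TOS8, which encodes a homeodomain protein, gave 6930 and 264112 units on galactose and 32.2 and 29615 on glucose, and the spread between experiments left it at 3.47 ± 2.26 (adjusted p = 0.286). For TOS8 the galactose value of experiment 1 was below the glucose value of experiment 2, so its groups overlapped. The remaining 3 strains carry systematic names only and were read by the uptag alone. YAR047C had 2571580 and 986502 units there, against 74418 and 103791 on glucose (4.17 ± 0.83, adjusted p = 0.060). YML084W had 1312000 and 588810 units on galactose and 7930 and 72002 on glucose. YML082W had 808991 and 519906 on galactose and 6592 and 44044 on glucose, and YML083C, the number between them, was not detected in any MDM33 sample. Of these strains RPL7B was also higher on galactose in both experiments with the empty vector, at 76214 and 30465 units on galactose and 20223 and 27881 on glucose (interaction 3.25 ± 1.41, adjusted p = 0.272), as were YML082W (56124 and 47258 on galactose and 20940 and 31682 on glucose) and YML084W (81497 and 73222 on galactose and 67484 and 63541 on glucose).

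**Figure D3:**
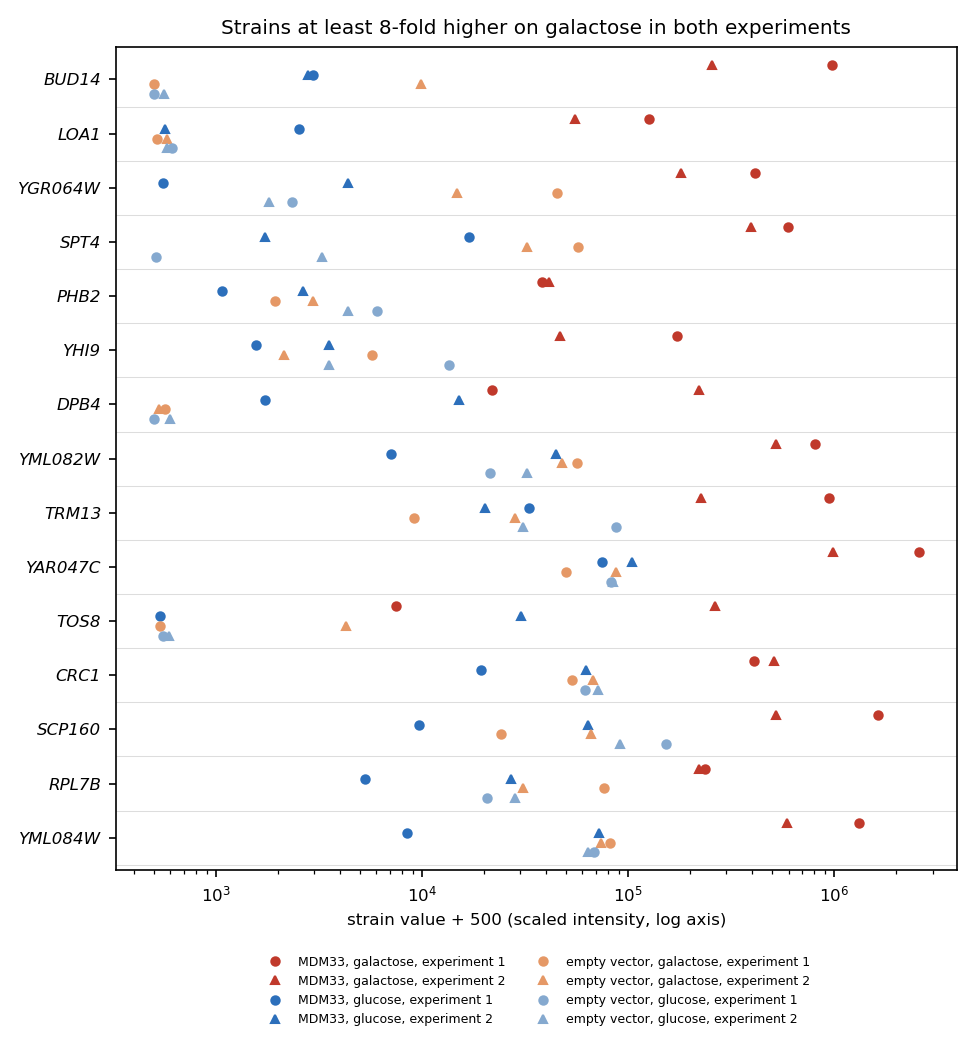
Strain value plus 500 units (x axis, log scale) of the 15 strains at least 8-fold higher on galactose than on glucose in both experiments with the MDM33 plasmid. Each strain has 4 rows from top to bottom, MDM33 galactose, MDM33 glucose, empty vector galactose and empty vector glucose, with circles for experiment 1 and triangles for experiment 2. The red galactose values lie to the right of the dark blue glucose values of the same experiment for all 15 strains, which the rule fixes.

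Strains just below the 8-fold rule included members of the SWR1 complex, which exchanges histone H2A.Z into nucleosomes. Both experiments and both tags detected 803 strains on galactose, and among these the next by the smaller of its 2 differences was SWC5, an SWR1 subunit, with 389967 and 195587 units on galactose and 15074 and 24234 on glucose (3.82 ± 1.12, adjusted p = 0.068). YAF9, a subunit shared by SWR1 and the acetyltransferase NuA4, had 1370620 and 190710 units on galactose, against 5261 and 35777 on glucose (5.15 ± 1.49, adjusted p = 0.068). YAF9 was also higher on galactose with the empty vector, at 213369 and 62809 units on galactose and 6459 and 49160 on glucose. Others of the kind were PAU2, of the seripauperin family (1224850 and 358361 units on galactose and 3650 and 48722 on glucose, by its uptag), and PDP3, which binds methylated histones (603254 and 295857 on galactose and 82686 and 41751 on glucose). TDH1, an isozyme of glyceraldehyde-3-phosphate dehydrogenase, had 377149 and 412212 units on galactose and 35396 and 75856 on glucose. The unnamed YHR078W, YDR024W and YPR064W completed the set. The smaller of their 2 differences was 2.84, 2.65 and 2.32, and their fitted differences were 3.47, 4.82 and 3.23. AIM33, one of the 10 strains with the highest signal on galactose by the lower of 2 values, had 363977 and 406525 units on galactose and 58547 and 52179 on glucose (2.79 ± 1.14, adjusted p = 0.121).

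The genes that switch on the GAL1/10 promoter bear on plasmid expression itself. Without GAL3, the galactose sensor, the strain had 402345 and 74799 units on galactose and 3462 and 25741 on glucose with the MDM33 plasmid, a difference of 4.09 ± 1.43 (adjusted p = 0.086). The empty vector pool showed the opposite order, at 1887 and 11038 units on galactose and 108117 and 22219 on glucose. The interaction was 7.34 ± 2.03 (adjusted p = 0.236), and most of the signal came from its downtag. Without GAL4, the activator, the values were 14414 and 207340 units on galactose and 56034 and 57412 on glucose, below glucose in experiment 1 and above it in experiment 2. GAL4 with the empty vector had 4421 and 2832 units on galactose and 62639 and 55671 on glucose, and the interaction was 3.84 ± 1.72 (adjusted p = 0.278). The GAL4 strain was retained with the MDM33 plasmid, and its fitted difference was -0.04 ± 1.22 (adjusted p = 0.987), which turned to 2.23 and 2.42 on the 2 scales of the 75th percentile.

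The strain lacking GAL80, the repressor of Gal4, was read by its uptag alone and was lost with the MDM33 plasmid. It had 2290 and 1280 units on galactose and 4681 and 8553 on glucose. With the empty vector it had 217572 and 44425 on galactose and 13900 and 51713 on glucose (interaction -3.47 ± 1.51, adjusted p = 0.272). Its fitted difference was -1.62 ± 1.07 (adjusted p = 0.293), near the median of all tested strains (-1.98), and 0.08 and 0.83 on the other 2 scales. Its uptag channel of galactose experiment 1 had a limit of 3339 units and a median of 2336, so being lost rested partly on that limit. GAL2, the galactose permease, passed the limit on galactose in experiment 1 only, with 8263 and 308 units on galactose, against 44680 and 48822 on glucose. GAL11, a subunit of Mediator, was not detected on either sugar. Galactose itself is broken down by the enzymes of the Leloir pathway, and GAL1, GAL7 and PGM2 strains were lower on galactose than on glucose in both experiments with either plasmid. The strain lacking the galactokinase GAL1 was lost, at 603 and 251 units on galactose and 12706 and 21622 on glucose with the MDM33 plasmid, and at 738 and 946 on galactose and 17551 and 35437 on glucose with the empty vector, which left an interaction of 0.02 ± 1.12 (adjusted p = 0.997). GAL7, a uridylyltransferase, had 5027 and 338 units on galactose and 20528 and 22575 on glucose. GAL10, an epimerase, was dim on glucose already, with 4491 and 604 units on galactose and 1131 and 669 on glucose. The strains of the phosphoglucomutases had 2531 and 252 units on galactose and 20556 and 58966 on glucose for PGM2, and 42733 and 2025 on galactose and 23030 and 23448 on glucose for PGM1, of which only PGM1 was retained. The difference of PGM1, -1.18 ± 1.37, became 0.78 and 1.43 on the other 2 scales.

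For 3 other mitochondrial genes of interest to the study, the 2 experiments went opposite ways. The FMP30 strain, which lacks an inner membrane protein of lipid metabolism, had 91755 and 11634 units on galactose and 36486 and 37460 on glucose. PAM17, of the inner membrane import motor, gave 6868 and 56010 on galactose and 23087 and 14296 on glucose. ATP20, a subunit of ATP synthase, gave 184575 and 597 on galactose and 21002 and 20542 on glucose and passed the limit on galactose in experiment 1 only. The fitted differences were -0.16 ± 1.14, 0.13 ± 1.54 and -0.58 ± 2.14, all with an adjusted p of at least 0.87, and all nearer to 0 than the median of all strains. On the 2 scales of the 75th percentile the signs of FMP30 (1.75 on that of the labelled barcodes) and ATP20 (1.00 and 1.75) turned. ELP3, the catalytic subunit of Elongator, had 99.4 and 127543 units on galactose and 450.5 and 1726 on glucose (2.59 ± 2.26, adjusted p = 0.424), by its uptag, and stood high in experiment 2 and at background in experiment 1.

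At the other end stood strains that were bright on glucose and near the limit on galactose. Both tags detected 2367 strains on glucose in both experiments, and the 15 of these with the lowest differences, by the one nearer to 0 of their 2, had fitted differences between -4.35 and -5.83 and adjusted p-values between 0.060 and 0.089. PER33, which encodes a membrane protein of the endoplasmic reticulum, had 2840 and 188 units on galactose, against 112731 and 64723 on glucose (-5.83 ± 0.95, adjusted p = 0.060). SWM2, a factor in the cap modification of small RNAs, had 1807 and 209.5 on galactose and 58039 and 41757 on glucose (-5.28 ± 0.87, adjusted p = 0.060). MNN5, a mannosyltransferase of the Golgi, had 3263 and 257 on galactose and 124912 and 23232 on glucose. The empty vector pool held PER33 at 82006 and 64026 units on galactose and 59262 and 66899 on glucose, and SWM2 at 85888 and 44836 on galactose and 46611 and 44412 on glucose.

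The same set held TEX1, of the THO complex for mRNA export (5172 and 329.6 units on galactose and 159131 and 54810 on glucose), CYK3, which acts in cytokinesis (2493 and 622 on galactose and 78859 and 49055 on glucose), and SBP1, an RNA-binding protein that represses translation (2039 and 667 on galactose and 47632 and 44608 on glucose). LYP1, the lysine permease, was lost, with 1149 and 295 units on galactose and 35005 and 39313 on glucose. The YNL285W, MCO6, YNL028W and DCK1 strains were lost as well, SSP1 and OCA2 were detected on galactose in 1 experiment, and IRC23 and YOR050C were retained at 2446 to 8373 units. The empty vector values of DCK1 were 83787 and 44852 units on galactose and 8.58 and 43961 on glucose, with the glucose value of experiment 1 near 0. Some neighbours by number were 8-fold lower too: BMT6 (beside PER33), ATG36 (MNN5), RTC4 (TEX1), YNR005C (SWM2), VMR1 (SBP1) and CUS2 (YNL285W). Among the neighbours of all 8-fold lower strains with a plain number this share was 6.85%, against 4.74% of all strains. Whether these pairs stand for separate genes was not tested.

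Of the 262 strains at least 8-fold lower in both experiments, 84 were lost, 104 were detected on galactose in 1 experiment and 74 were retained, and 2 passed the same rule with the empty vector. The downtags carried this set. By downtags alone 239 of the 262 passed the rule (median log2 difference -5.36), and by uptags alone 4 (-2.88). The uptag channel of galactose experiment 1 had the highest detection limit of all, 3339 units, and a median of 2336 units, and its part in this gap between tags was not tested. Over all strains the rule took 6 by uptags and 469 by downtags.

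The functional lists are given here as counts beside those of all strains, with no test of the list. Genes of the mitochondrial ribosome and of mitochondrial gene expression, 3 lists of 115 strains together, had 39 strains detected on glucose, of which 9 were retained, 8 were detected in 1 experiment and 22 were lost (56.4%, against 11.6% of all strains). In the lowest bin of glucose levels 18 of 19 such strains were lost, against 37.1% of all strains there. The median log2 differences were -2.19 and -3.63 in the 2 experiments, against -1.74 and -2.58 over all strains detected on glucose. Of the 22 lost strains, 19 were also undetected on galactose with the empty vector in both experiments and 1 was detected in both, whereas of all 436 lost strains 43 were undetected and 291 were detected there. Of these 19 strains only 3 were detected on glucose with the empty vector in both experiments, 15 in 1 and 1 in neither. For 16 of them a lower value on galactose with the empty vector could thus not be read in both experiments.

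**Figure D4:**
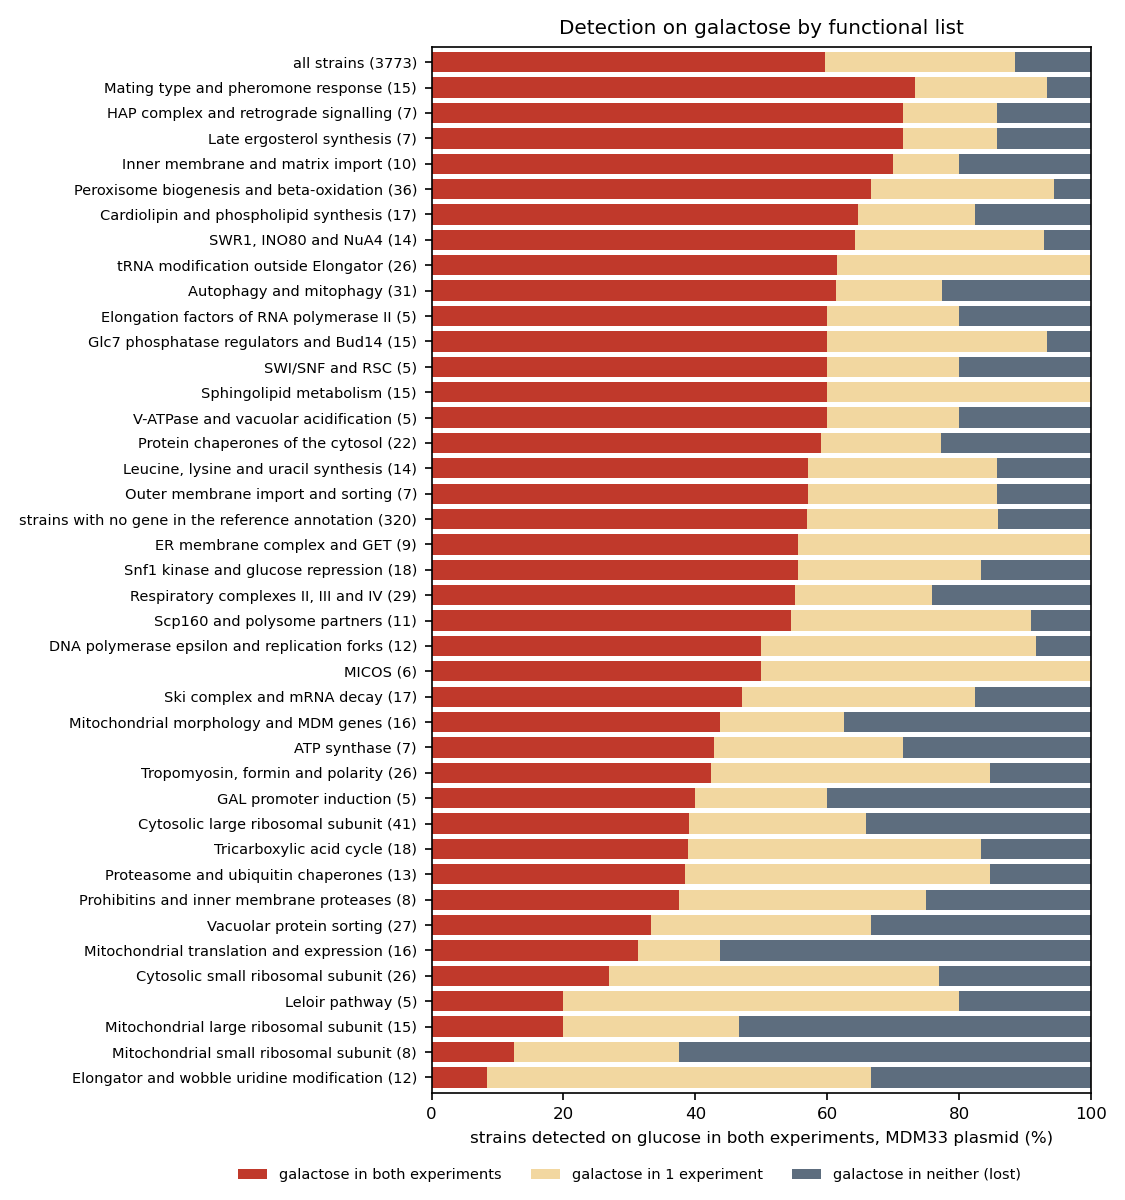
Share of the strains detected on glucose in both experiments with the MDM33 plasmid (x axis, percent) that were detected on galactose in both experiments (red), in 1 (yellow) or in neither (grey), for each functional list with at least 5 such strains, numbers in brackets. All strains stand at the top with 59.7% retained and 11.6% lost, and the lists below run from the highest to the lowest retained share.

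Among the mitochondrial strains, ABF2, which packages mitochondrial DNA, had 432 and 162 units on galactose and 12200 and 11530 on glucose (-3.98 ± 0.93, adjusted p = 0.060). MRPS28, of the small mitochondrial ribosomal subunit, had 179 and 340.3 units on galactose against 6004 and 41675 on glucose. Its empty vector values were 3.16 and 288 on galactose and 9.63 and 22334 on glucose. MIP1, the mitochondrial DNA polymerase, had 29.0 and 319 on galactose and 2684 and 25438 on glucose (-3.79 ± 1.15, adjusted p = 0.072), by its downtag, since the uptag alone gave 0.20. Against this run stood 3 strains that were higher on galactose in both experiments. SOV1, a mitochondrial protein linked to translation, had 1333490 and 221441 units on galactose and 20078 and 62048 on glucose (3.92 ± 1.11, adjusted p = 0.067). RSM25, of the small mitochondrial subunit, had 398639 and 127622 on galactose and 37894 and 25241 on glucose (2.85 ± 1.06, adjusted p = 0.096), and AEP3, which stabilises a mitochondrial mRNA, had 245869 and 69828 on galactose and 58829 and 47457 on glucose. All 3 were also detected on galactose with the empty vector.

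Of 29 strains for respiratory complexes II, III and IV detected on glucose, 16 were retained (55.2%, against 59.7% of all strains). Another 7 were lost (24.1%, against 11.6%), 5 of these in the lowest bin. Over the 29 strains the median differences were -1.28 and -2.06. The lost CYT1 strain, without cytochrome c1, had 1458 and 413 units on galactose and 24229 and 20237 on glucose, and the empty vector gave 47.0 and 189 on galactose and 9507 and 15481 on glucose (interaction 0.28 ± 1.12, adjusted p = 0.923). COQ3, of coenzyme Q synthesis, was lost likewise, at 339.7 and 124 units on galactose and 9448 and 15215 on glucose. The CYC1 strain, which lacks the main form of cytochrome c, stood at 1583700 and 76748 units on galactose and 105026 and 54274 on glucose (2.20 ± 1.37, adjusted p = 0.264), and with the empty vector at 109211 and 58182 on galactose and 56924 and 57106 on glucose. Of ATP synthase, 7 strains were detected on glucose, with 3 retained (42.9%), 2 in 1 experiment and 2 lost (28.6%), both in the lowest bin.

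Of 67 strains of the cytosolic ribosome detected on glucose, 23 were retained (34.3%, against 59.7% of all strains) and 24 were detected in 1 experiment. The other 20 were lost (29.9%, against 11.6%), 16 of the 20 in the lowest bin of glucose levels, which held 30 of the 67. Their median differences of -1.77 and -2.99 were close to those of all strains. Of the 20 lost strains 9 were detected on galactose with the empty vector in both experiments and 2 in neither. The RPL6A strain had 697 and 349.8 units on galactose and 19430 and 15694 on glucose with the MDM33 plasmid (-4.15 ± 0.79, adjusted p = 0.060). The empty vector values of RPL6A were 29535 and 27904 on galactose and 8847 and 20706 on glucose. The 8-fold rule downward took 6 ribosomal strains, RPL6A, RPL34B, RPL43B, RPP2A, RPS0A and RPS14A (8.96% of the 67, against 6.94% of all strains detected on glucose). RPL2B stood apart on the other side with 968461 and 222581 units on galactose and 2094 and 59472 on glucose (5.22 ± 1.48, adjusted p = 0.067), as did RPL7B above and, more weakly, RPL40A (223821 and 41768 on galactose and 29569 and 15415 on glucose). Paired ribosomal genes were read by separate probes, since each deletion has its own barcodes, and binding of a barcode to the probe of another was not tested.

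**Figure D5:**
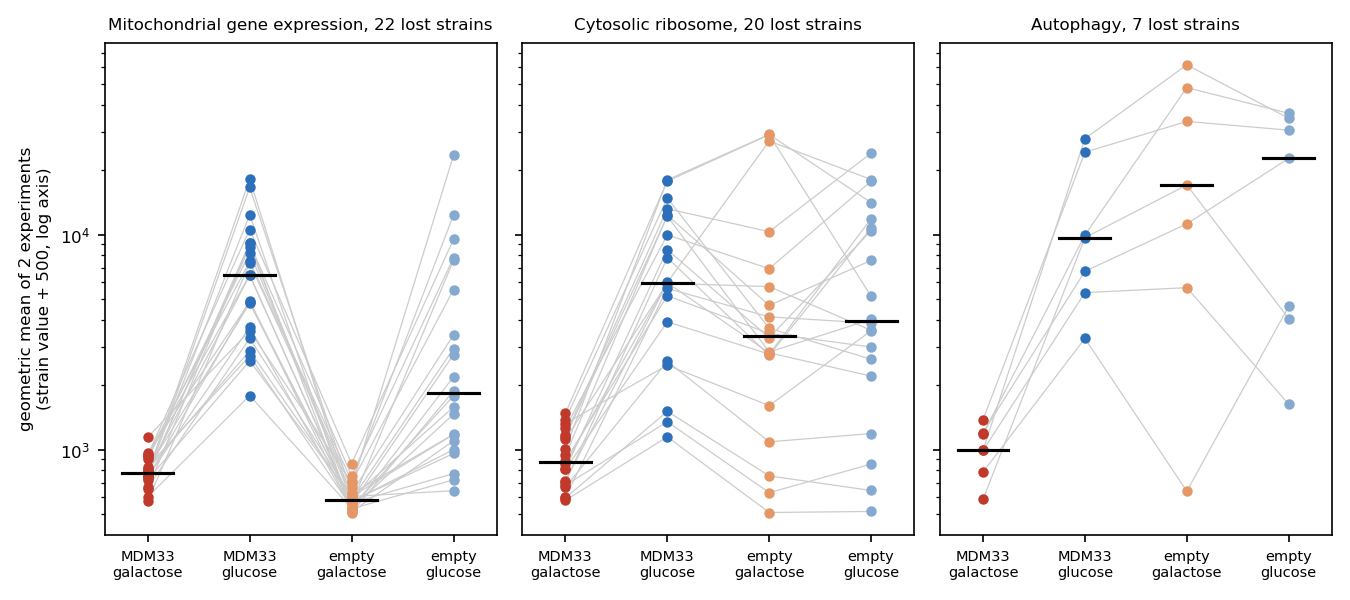
Geometric mean over the 2 experiments of the strain value plus 500 units (y axis, log scale) for the strains lost on galactose with the MDM33 plasmid, for mitochondrial gene expression (22 strains), the cytosolic ribosome (20) and autophagy (7). Points are strains, grey lines join a strain across the 4 groups and black bars are medians. Most mitochondrial strains sit near the floor on galactose with both plasmids, but only 3 of the 19 undetected there with the empty vector were detected on its glucose plates in both experiments, and 9 of the 20 ribosomal strains were detected on galactose with the empty vector in both experiments.

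Elongator and its partners modify wobble uridines of tRNAs. Of 12 such strains detected on glucose 1 was retained, 7 were detected in 1 experiment and 4 were lost, against 59.7% retained and 11.6% lost over all strains, and 11 of the 12 were lower on galactose in both experiments, as were 68.2% of all strains. SAP185, a phosphatase partner, was the retained strain, at 23564 and 6724 units on galactose and 42908 and 69637 on glucose, and its difference of -2.07 ± 0.90 was 0.58 on the scale of the labelled barcodes. ELP2, ELP4, NCS2 and UBA4 were lost, NCS2 with 1599 and 313 units on galactose and 13510 and 20484 on glucose. Of the 12 strains 7 lay in the lowest bin of glucose levels, where 3 of the 4 losses fell. Other tRNA modification genes gave 16 retained (61.5%) and 0 lost of 26, with 7 in the lowest bin and median differences of -1.31 and -1.62. TRM13, above, passed the 8-fold rule upward, and TYW1, which acts in the synthesis of wybutosine, downward (3325 and 297 units on galactose and 32506 and 34789 on glucose).

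Chromatin strains had medians above those of the pool. The 14 strains of SWR1, INO80 and NuA4 detected on glucose had median differences of 0.01 and -0.22, against -1.74 and -2.58 over all strains. Of the 14, 9 were retained (64.3%, against 59.7% of all strains) and 1 was lost (7.14%, against 11.6%), EAF6, in the lowest bin. As many strains, 4 of the 14 (28.6%), were lower on galactose in both experiments as were higher, against 68.2% lower and 4.80% higher over all strains. Besides SWC5 and YAF9, 2 were higher on galactose in both experiments. The SWR1 strain, which lacks the ATPase, had 119724 and 52291 units on galactose and 54996 and 19373 on glucose (1.26 ± 1.10, adjusted p = 0.422), and with the empty vector 80891 and 26715 on galactose and 63413 and 14061 on glucose. The HTZ1 strain, which lacks histone H2A.Z itself, had 16137 and 349324 on galactose and 15069 and 58248 on glucose (1.33 ± 1.51, adjusted p = 0.544). Of Mediator, 4 strains of 15 were detected on glucose, all in the lowest bin, and 2 of them were retained (50%), with median differences of 2.13 and 0.48. MED1, a subunit of the middle module, had 238399 and 17451 units on galactose, against 1854 and 4778 on glucose (4.22 ± 1.29, adjusted p = 0.072). With the empty vector MED1 was likewise higher on galactose, at 25975 and 10421 units on galactose and 3202 and 1646 on glucose, and the interaction was 1.62 ± 1.82 (adjusted p = 0.653). NUT1 had 73628 and 2722 on galactose and 401 and 14517 on glucose. Of the elongation factors beside SPT4, LEO1 of the Paf1 complex had 27832 and 19272 on galactose and 5474 and 20158 on glucose. CTF8, which loads the replication clamp for cohesion, was higher in both experiments, at 95025 and 37902 units on galactose and 2939 and 19649 on glucose (2.86 ± 1.27, adjusted p = 0.141, with -0.60 by the uptag alone), whereas TOF1, of the fork protection complex, was 8-fold lower in both (3527 and 73.6 on galactose and 41507 and 31942 on glucose).

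Genes that shape mitochondria gave mixed values. MICOS is the complex that holds cristae junctions, and all 6 of its strains were detected on glucose. Of these 3 were retained (50%, against 59.7% of all strains), 3 were detected in 1 experiment and 0 were lost (against 11.6%). The MIC60 strain, without the core subunit, had 160657 and 86216 units on galactose and 58081 and 78981 on glucose, and MIC19 had 28393 and 367680 on galactose and 119443 and 53580 on glucose. MIC27 was retained at 1677 and 10464 units on galactose, against 8830 and 18468 on glucose. MIC10 (28373 and 407 on galactose, 7691 and 8981 on glucose), MIC12 (4777 and 757 on galactose, 20548 and 28715 on glucose) and MIC26 (6530 and 356 on galactose, 47164 and 29632 on glucose) passed the limit on galactose in experiment 1 only. The signs of MIC27 (0.13 and 1.03) and MIC10 (0.32 and 1.06) turned on the 2 scales of the 75th percentile, and MIC60 was higher in both experiments with 0.79 ± 0.84, but at -0.88 by its uptag alone. Of the 16 strains for mitochondrial shape and the MDM genes, 7 were retained (43.8%) and 6 were lost (37.5%), all 6 in the lowest bin of glucose levels. MDM30, an F-box protein for mitochondrial fusion, had 41.2 and 219.6 units on galactose and 10695 and 11924 on glucose (-4.24 ± 1.61, adjusted p = 0.102, with 0.14 by the uptag alone). Of the related inner membrane proteins Mdm31 and Mdm32, the MDM31 strain was lost at 613 and 261 units on galactose and 1550 and 642 on glucose (-0.73 ± 1.26, and 0.86 on the scale of the labelled barcodes), and the MDM32 strain was retained though 8-fold lower, at 5306 and 4693 on galactose and 46141 and 51631 on glucose. Among the inner membrane proteases OMA1 was lost, with 1226 and 253 units on galactose and 15746 and 18811 on glucose (-3.96 ± 0.91, adjusted p = 0.060), and PIM1, the Lon protease, with 816 and 1045 on galactose and 8050 and 9824 on glucose.

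Of the 17 strains of cardiolipin and phospholipid synthesis detected on glucose, 11 were retained (64.7%, against 59.7% of all strains). Another 3 were lost (17.6%, against 11.6%), all 3 in the lowest bin. Over the 17 strains the median differences were -0.63 and -2.37. GEP4, the phosphatase that makes phosphatidylglycerol, was lost, with 158 and 419 units on galactose and 5406 and 15360 on glucose (-3.64 ± 0.98, adjusted p = 0.065, with 0.30 by the uptag alone). GEP4 was bright with the empty vector, at 75603 and 34870 units on galactose and 3617 and 14318 on glucose, and the interaction was -6.37 ± 1.38 (adjusted p = 0.236). TAZ1, the cardiolipin transacylase, was lost too, at 960.0 and 187 units on galactose and 1762 and 8803 on glucose. The acyltransferase SCT1 and the cholinephosphotransferase CPT1 were retained but at least 8-fold lower, SCT1 with 9854 and 3920 on galactose and 151723 and 91933 on glucose. PSD2, a phosphatidylserine decarboxylase outside mitochondria, was higher in both experiments, at 73567 and 106908 units on galactose and 24047 and 64530 on glucose (1.16 ± 0.83, adjusted p = 0.331, with -1.54 by the uptag alone). Sphingolipid genes gave 9 retained of 15 (60%, near the share of all strains) and 0 lost.

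Among import factors DJP1, a cytosolic J-protein, had 1199840 and 193297 units on galactose and 40772 and 84564 on glucose (3.03 ± 1.05, adjusted p = 0.084), and MDJ2, a J-protein of the inner membrane, had 142 and 324 on galactose and 21400 and 14390 on glucose (-4.63 ± 0.74, adjusted p = 0.060, with 0.19 by the uptag alone). Autophagy genes held 5 of the 262 strains past the 8-fold rule downward, ATG3, ATG23, ATG31, ATG36 and VPS30 (16.1% of 31, against 6.94% of all strains), and 7 of the 31 were lost (22.6%, against 11.6%). The difference of VPS30 rested on its downtag (-5.08, against 0.23 by the uptag alone). The neighbours by number of ATG36 (MNN5) and VPS30 (MEI5) were also 8-fold lower in both experiments. Whether these pairs stand for separate genes was not tested. Of the 31 strains 6 lay in the lowest bin of glucose levels, with 3 of the 7 losses, and the other 4 losses lay in the second bin. ATG23 had 1161 and 92.7 units on galactose and 21108 and 35557 on glucose (-4.81 ± 0.96, adjusted p = 0.060), and ATG36, the receptor for peroxisomes, had 1233 and 595 on galactose and 22692 and 24630 on glucose (-4.13 ± 0.75, adjusted p = 0.060). ATG32, the receptor for mitochondria, had 1412 and 229 on galactose and 2848 and 29022 on glucose. Of the 7 lost strains 6 were detected on galactose with the empty vector in both experiments. Vacuolar protein sorting gave 9 lost of 27 (33.3%, against 11.6% of all strains), with 7 of them in the lowest bin. The lost strains included those without the vacuolar protease PEP4 (194 and 366 units on galactose and 8059 and 35415 on glucose, with a difference of 0.37 by the uptag alone) and DID2 (589 and 209 on galactose and 13048 and 33497 on glucose), of the ESCRT pathway. Peroxisomal genes had 24 retained of 36 (66.7%, against 59.7% of all strains) and 2 lost (5.56%, against 11.6%), both in the lowest bin. Over the 36 strains the median differences were -1.86 and -2.92.

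ADD66, which assembles the proteasome, had 499.9 and 210.3 units on galactose, against 42910 and 26219 on glucose (-5.34 ± 0.75, adjusted p = 0.060). SNL1, an Hsp70 partner of the endoplasmic reticulum membrane, had 380.2 and 182 on galactose and 34631 and 27310 on glucose (-5.33 ± 0.74, adjusted p = 0.060). Both were bright on galactose with the empty vector, ADD66 at 31342 and 24077 units and SNL1 at 27672 and 34606. These differences rested on the downtags, since by uptags alone they were 0.56 for ADD66 and 0.89 for SNL1. The strains of the paired Hsp90 genes, HSC82 and HSP82, were both lost, with HSC82 at 1815 and 167 units on galactose and 6225 and 41687 on glucose and HSP82 at 1403 and 227 on galactose and 624 and 31844 on glucose. In experiment 1 HSP82 was higher on galactose than on glucose, so that it counted as lost there rested on the detection limits. PFD1, of the prefoldin complex, was higher in both experiments, at 296838 and 141567 units on galactose and 27584 and 43174 on glucose (2.55 ± 0.79, adjusted p = 0.073). All 13 proteasome strains detected on glucose were lower on galactose in both experiments, as were 68.2% of all strains.

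Strains that lack a gene for making a nutrient are given as a look at detection, and check no label of sugar, plasmid or experiment. Their growth was not measured. Of 53 strains that cannot make an amino acid or adenine missing from the plates, 47 were undetected on glucose in both experiments and 1 was detected in both. Over all 5526 strains these numbers were 1229 and 3773. Of the 7 histidine strains only HIS3 was detected on glucose, at 21518 and 19855 units on galactose and 31775 and 42608 on glucose (-0.82, and 0.59 and 1.01 on the 2 scales of the 75th percentile), and HIS1, HIS2, HIS4, HIS5, HIS6 and HIS7 had no detected value in the MDM33 samples. Strains that cannot make leucine, lysine or uracil, which the medium supplied, were detected on glucose in both experiments in 14 of 17 cases. Of the 14, 8 were retained (57.1%, against 59.7% of all strains) and 2 lost (14.3%, against 11.6%), URA1 and URA2, 1 of them in the lowest bin. The 440 strains with no gene in the reference annotation had 320 detected on glucose, of which 182 were retained (56.9%) and 45 lost (14.1%), 37 of these in the lowest bin. Upward the 8-fold rule took 3 of the 440 strains, against 15 of all 5526 (0.271%). Downward it took 25 of the 262 (7.8% of the 320, against 6.94% of all strains detected on glucose). Of the 438 neighbours by systematic number of the 244 strains with a plain number that were 8-fold lower, 30 were in the same set (6.85%, against 4.74% of all strains).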

How the data were processed

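Barcodes of genomic DNA were amplified, labelled and hybridized by the authors, who took background-corrected spot densities with ArrayVision. The deposited values are linear intensities that the authors had brought to nearly equal sums in all channels. The 24 columns that hold values before scaling were left unused, because they are numbered otherwise than the titles. Probes used here were 14741 of the 14767 annotated ones, and 26 were left out. On these arrays the number of experiments limits the precision.

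For each strain and tag the probe with the highest mean was taken (3094 of 10458 strain and tag pairs had more than 1), dyes were averaged and then tags, which gave 5526 strains, 4932 with both tags and 594 with 1. Strains whose mean over 8 values passed the mean detection limit of 854 units (4074) were tested with lmFit, contrasts and eBayes of limma on log2(value + 500), over 2 experiments in each of 4 groups, which leaves 4 degrees of freedom, and p-values were adjusted by Benjamini-Hochberg with a threshold of 0.05. Nothing in the labels says how far the 2 experiments were separate beyond their number, so p-values measure the spread between these samples. The test was checked on data simulated with the spread of this fit, the same in all groups, and with 200 strains changed. It recovered 0% of log2 differences of 3 (8-fold) and 84% of those of 6, with 9 false calls in the latter run. The lack of calls thus says little about 8-fold differences. The simulation did not hold the wider spread of the MDM33 plasmid on galactose.

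Strain names were matched to RefSeq genes of assembly R64, and 440 of 5526 strains without a match kept their systematic name. Genes were named by fixed rules: 8 strains of interest to the study, the 15 highest and 15 lowest by the smaller difference of the 2 experiments among strains detected by both tags, the 10 brightest on galactose, the strains past the 8-fold rule upward, and members of 44 functional lists that were retained, lost or past the 8-fold rule, with all members of lists of up to 10. Not every member so allowed is named, and those given are a choice made with their values known. The strains, lists, tests and alternatives were chosen with earlier results of these data known. Of the list names, 4 were not found in the reference. Alternatives covered the offset, scaling, tags, dyes, filter, probes, array weights, trend, a replicate block, the detection limit and each experiment left out, and the mean of all probes and the 8-fold counts of 1 experiment were added after the data were seen. Computations used Python 3.11.15, pandas 2.3.3, numpy 2.4.6, scipy 1.17.1, R 4.3.3, limma 3.58.1 and, for the plots, matplotlib 3.10.9.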

Additional observations from a re-analysis of the deposited data

How the results depend on the processing

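With the MDM33 plasmid the test called 0 strains. The count became 333 (19 higher on galactose, 314 lower) with an offset of 2000 units, 516 (13 and 503) with downtags alone, 668 (24 and 644) with no filter, 351 (15 and 336) among strains detected on glucose, 213 (17 and 196) with a mean-variance trend and 11 (0 and 11) with original probes only. On the scale of the 75th percentile over all probes it was 12 (12 and 0), and on that over the labelled barcodes 27 (27 and 0). The median log2 difference of -1.98 was -0.403 and 0.0755 under these 2 scalings and between -2.29 and -1.73 with 1 experiment left out. Leaving out 1 experiment of 1 group gave 0 to 1821 calls for the MDM33 plasmid, with calls only when a galactose experiment of that plasmid was left out, and 0 to 942 for the interaction. The interaction had 159 calls with downtags alone and 0 in the other settings run with all experiments, and the empty vector contrast had 0 in all. An offset of 100, uptags alone, either dye of experiment 2, array weights (0.233 for both galactose values of the MDM33 plasmid and 1.33 to 1.87 for the others), the 4 MDM33 values alone and the mean of all probes left the MDM33 count at 0.

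Experiment numbers are shared by the groups, but the experiment differences correlated by only 0.06 to 0.32 between groups, so the test did not pair the samples. The 8-fold rule and the counts of strains higher or lower in both experiments still set same-numbered samples against each other. With the experiment as a replicate block the count stayed at 0 in all 3 contrasts, with a lowest adjusted p of 0.072 for the MDM33 plasmid.

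The 436 lost strains became 276 with the 95th percentile as limit and 734 when both tags had to pass, and 732 to 1664 in single experiments. The 2252 retained strains became 1427 with uptags alone and 791 with both tags, and 2592 to 3082 in single experiments. No strain was gained on galactose, against 2 with downtags alone, 2 with Cy5 alone, 4 with the 95th percentile and 24 to 62 in single experiments. The 15 strains 8-fold higher became 112 and 103 under the 2 scalings, 8 with downtags alone and 84 to 177 in single experiments. The 262 strains 8-fold lower became 95 with an offset of 2000, 15 under the scaling to the labelled barcodes, 6 with uptags, 469 with downtags and 601 to 1735 in single experiments. The cause of these shifts was not tested. Of 141 named strains tested, 40 changed the sign of their difference in at least 1 alternative. The difference of GAL4, -0.04, was -1.94 to 1.86 with 1 experiment of 1 group left out, and 1.86 passed limma's test (adjusted p = 0.048, without galactose experiment 1 of the MDM33 plasmid).

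The galactose experiments differed by a median of 1.80 on the log2 scale, and there are 2 per group. Detection limits on galactose, up to 3339 units for uptags, bound what counts as lost.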
